A study of Mus musculus with 19 samples.

Results

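The question here was whether the effect of a liver transgene on gene expression differed between an early and a late time, outside visible tumours. It was answered with 15 of the 19 libraries of the study, the 4 tumour libraries being left out, and with 14707 of 55421 annotated genes, those with enough counts to be tested. For each gene the mutant-minus-control difference at 9 months was set against the same difference at 2 months, both on the log2 scale. The result, called the change of the mutant effect, is positive where mutants stood higher against their controls at 9 months than at 2 months, and negative where they stood lower.

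All mice were C57BL/6 males, and in every animal, controls included, doxycycline was withdrawn at 3 weeks of age. In the mutants withdrawal switched on a transgene, which the study's title gives as the AP-1 dimer of c-Jun and Fra2, and controls were littermates given the same treatment. Livers were taken 2 months after withdrawal (6 controls, 3 mutants, labelled mostly hepatocyte) or 9 months after (3 controls labelled mostly hepatocyte, and 3 mutant samples, labelled mostly transformed hepatocyte, from areas with no tumour visible to the eye, called tumour-free below). The driver promoter is not given in the labels. Fra2 is encoded by Fosl2.

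AP-1 factors are pairs of Jun and Fos proteins that bind a short palindromic DNA element and switch many genes on or off. In hepatocytes they act in the stress response, in regeneration and in the handling of fat, where PPAR nuclear receptors drive genes for lipid droplets and for the burning of fatty acids. Lipid droplets hold triglyceride under a coat of perilipins and other proteins.

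Libraries held between 14294611 and 22062341 counts, and the lowest correlation of log2 levels within a group was 0.974. Scaling factors were 0.864 to 0.934 in controls and 1.06 to 1.25 in mutants. The transgene was read first, as a check of the labels. Fosl2 ranged from 8.04 to 18.3 CPM (counts per 1000000 of the scaled library total) in the 2-month controls (median 11.1). It stood at 847, 778 and 617 CPM in the 2-month mutants, at 19.02, 12.1 and 9.02 CPM in the 9-month controls and at 896, 865 and 752 CPM in tumour-free mutants. Every mutant library was far above every control library at both times, and the change of the mutant effect was 0.01 ± 0.36 on the log2 scale (SE), with an adjusted p of 1 (edgeR quasi-likelihood test, Benjamini-Hochberg over all genes tested, as for every adjusted p below). Jun, the partner, was at 613, 652 and 514 CPM in 2-month mutants and at 751, 642 and 417 CPM in tumour-free mutants. Its controls ranged from 10.1 to 24.9 CPM at 2 months, and were at 371, 39.0 and 22.1 CPM at 9 months. The change for Jun was -3.10 ± 1.01 with an adjusted p of 0.18, and control 1 at 9 months stood apart, the change being -0.87 without it. That library also held the highest sum of 19 immediate early genes, 3535 CPM against 285 and 445 CPM in the other 9-month controls, and tumour-free sample 1 held 1352 CPM against 269 and 404 CPM in the other two. Without both libraries numbered 1 the change was called in 245 genes, 153 of them among those called with all libraries. Myc, named in the study's title, had a change of 0.54 ± 0.94 with an adjusted p of 0.895, and its levels overlapped between all groups. It was -0.62 without tumour-free sample 1 and 1.44 without control 1 at 9 months.

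The mutant effect differed between the times in 223 genes, 1.52% of those tested, with an adjusted p under 0.05. It was higher at 9 months in 68 genes (0.462%) and lower in 155 (1.05%). At each time alone far more genes separated mutants from controls, 5906 (40.2%) at 2 months and 6000 (40.8%) at 9 months, where 20.3% of tested genes were called higher and 20.5% lower in mutants. With libraries scaled by total count alone the split was 92 higher and 87 lower, and the median over all genes moved from -0.03 to 0.12, so directions are relative to the scaling used. Leaving out 1 library at a time gave 110 to 293 genes, the fewest without 2-month mutant 2 and the most without tumour-free sample 1, and 82 of the 223 were called in every one of these fits (25 higher, 57 lower). Counts also fell by over 1.5 times without tumour-free sample 2 (115) or 3 (118) or 2-month mutant 1 (148), and were 149 without control 3 at 9 months. Among the 223, the median absolute change was 1.61 on the log2 scale and 179 changed by at least 2-fold.

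**Figure D1:**
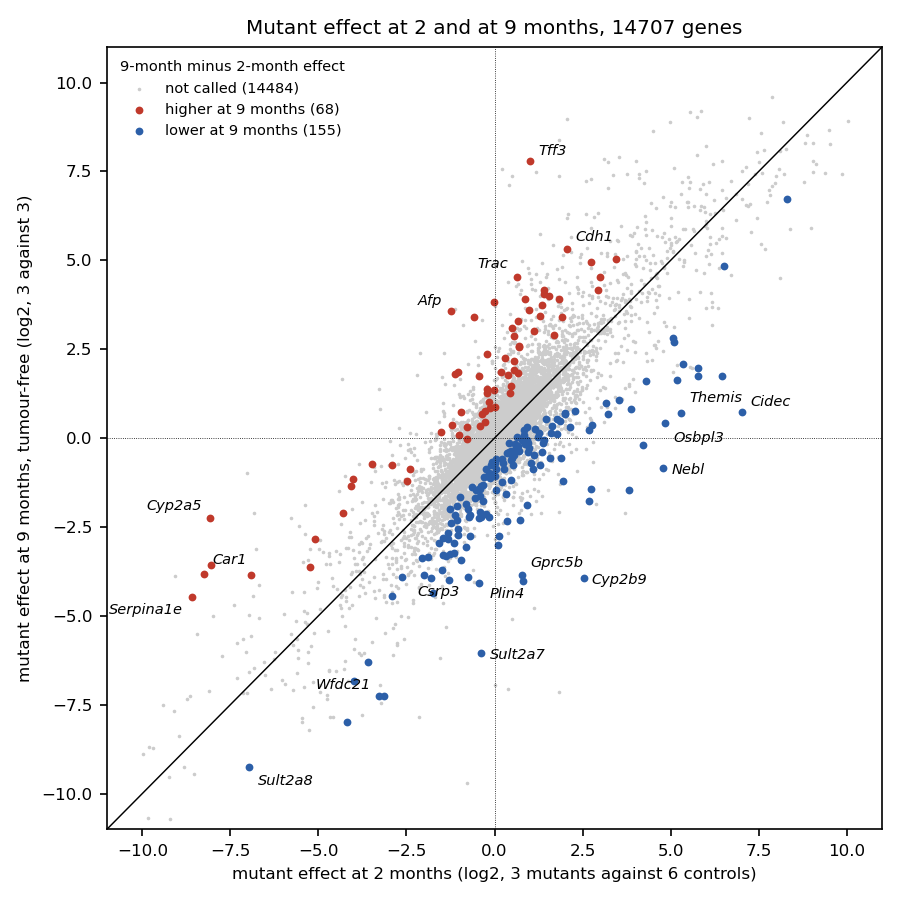
Mutant-minus-control difference at 2 months (horizontal axis, log2) against the same difference at 9 months in tumour-free tissue (vertical axis, log2); each point is 1 of 14707 genes and the line marks equal effects. Red points (68) lie above the line and blue points (155) below it; Cidec, Themis, Osbpl3 and Nebl lie far to the right near 0 on the vertical axis.

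The same number can be read as a difference of 2 steps over time, the mutant step (tumour-free minus 2-month mutants) less the control step (9-month minus 2-month controls). Over all tested genes 1903 (12.9%) changed with time in controls, 8.27% up and 4.67% down, and 793 (5.39%) in mutants, 3.26% up and 2.14% down. Of the 155 lower genes, 119 rose with time in controls and 47 fell with time in mutants. Of the 68 higher genes, 48 rose with time in mutants and 24 fell with time in controls. The larger of the steps was the control step for 104 of the 155 lower genes and the mutant step for 51 of the 68 higher genes. Over all tested genes the control step was the larger in 52.3%. The steps share libraries with the change itself, so these counts describe it and do not test it, and this division was chosen after the values were seen. According to the design text of the series each time was sequenced in its own run, so age and run cannot be told apart in a single step, whereas a factor of the run that acts equally on both genotypes of a time cancels in the change.

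**Figure D2:**
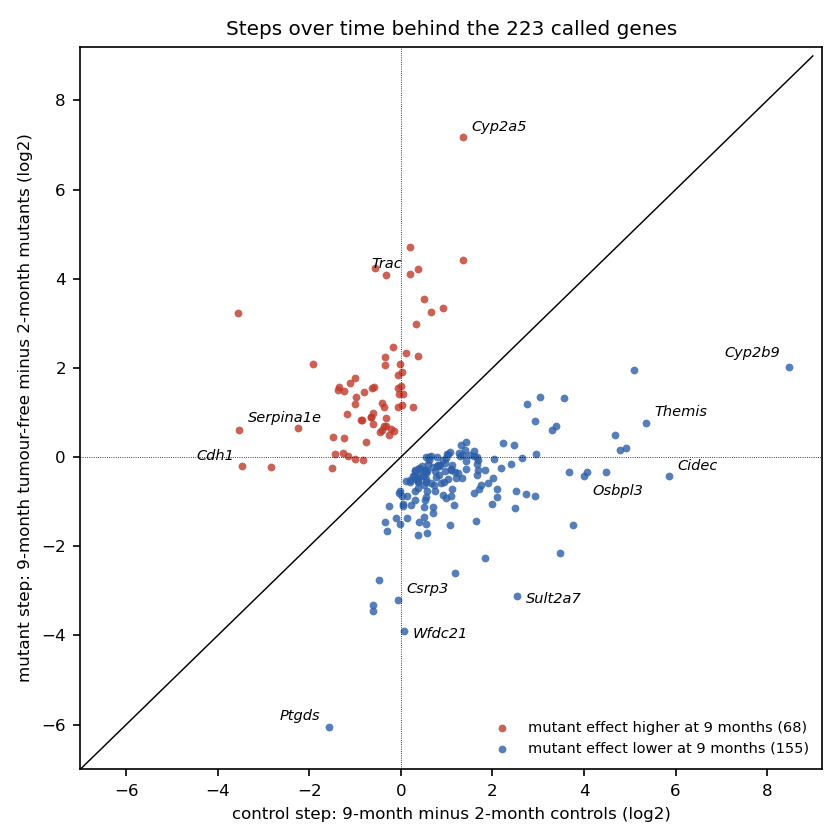
Control step over time (horizontal axis, log2) against mutant step over time (vertical axis, log2) for the 223 genes whose mutant effect changed; the line marks equal steps. Blue points spread to the right, with Cyp2b9, Cidec and Themis farthest, while red points spread upward, with Cyp2a5 highest.

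The 14 tested lipid droplet genes held 4 called lower and 0 higher, against 1.05% lower and 0.462% higher over all tested genes. Their median change was -0.57 on the log2 scale against -0.03 over all genes. With time 9 rose and 0 fell in controls, and 1 rose and 1 fell in mutants. Over all tested genes 8.27% rose in controls and 2.14% fell in mutants. The 4 called were Cidec, Plin2, Plin4 and Fitm1, which build, coat or enlarge the stores of fat in the cell. Under library size alone 3 were called, and 13 of 14 members were negative under either scaling. Without both libraries numbered 1 at 9 months 4 were called. In bulk tissue fewer cells of a type and less RNA per cell cannot be told apart.

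Cidec encodes a protein that fuses lipid droplets into larger ones and lies on the minus strand of chr6:113424634-113435760 (GRCm38, GENCODE M21). One of its annotated starts is shown with Nebl and Ptgds, since these 3 are the described genes whose mutant effect was positive at 2 months and whose start region held the letters of the AP-1 element. The windows reach from 250 bases before to 50 bases after the start (RefSeq, GRCm38.p6), all on the minus strand and read 5′ to 3′, and capitals mark TGACTCA or its reverse complement TGAGTCA.
Cidec, chr6:113434715-113435014: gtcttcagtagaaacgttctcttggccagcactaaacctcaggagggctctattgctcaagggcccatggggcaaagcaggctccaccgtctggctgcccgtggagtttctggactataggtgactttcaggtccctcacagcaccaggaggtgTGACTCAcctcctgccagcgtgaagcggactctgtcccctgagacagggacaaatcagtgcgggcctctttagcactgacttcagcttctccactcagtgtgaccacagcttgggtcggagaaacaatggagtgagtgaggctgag
Nebl, chr2:17731085-17731384: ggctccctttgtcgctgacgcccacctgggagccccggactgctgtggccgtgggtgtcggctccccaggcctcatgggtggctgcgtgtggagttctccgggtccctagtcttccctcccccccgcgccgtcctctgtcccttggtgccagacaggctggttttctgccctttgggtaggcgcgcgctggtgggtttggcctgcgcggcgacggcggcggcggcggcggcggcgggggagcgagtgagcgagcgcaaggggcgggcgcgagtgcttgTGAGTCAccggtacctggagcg
Ptgds, chr2:25469700-25469999: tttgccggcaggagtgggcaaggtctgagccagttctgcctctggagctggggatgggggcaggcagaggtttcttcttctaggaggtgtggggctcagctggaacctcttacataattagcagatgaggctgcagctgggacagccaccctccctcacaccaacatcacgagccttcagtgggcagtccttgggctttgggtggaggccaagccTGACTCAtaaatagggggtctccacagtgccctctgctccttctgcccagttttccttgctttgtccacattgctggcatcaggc
The match began 96 bases before the start in Cidec, 35 before it in Ptgds and 28 after it in Nebl. The window of another annotated Cidec start, chr6:113435711-113436010, held 0 matches. Such a match, on either strand, was present in 5.2% of the 32851 windows of the table, in 5.04% of the 11016 tested genes with a window and in 8.81% of the 159 called genes with one, which is 14 genes. A match describes the letters in the window and shows no binding.

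Cidec was almost silent in the 2-month controls, at 1.02 to 2.39 CPM (median 1.44). It stood at 73.6, 339.5 and 191 CPM in 2-month mutants, at 38.9, 138 and 90.5 CPM in 9-month controls and at 130.1, 149 and 168 CPM in tumour-free mutants. Mutants were thus apart from controls at 2 months, while at 9 months the groups overlapped, the controls having risen. The mutant effect was 7.03 at 2 months and 0.74 at 9 months, and the change was -6.29 ± 0.69 (adjusted p = 0.000802). Without 2-month mutant 2 it was -5.65. Cidec is also an adipocyte gene, and among the fat cell genes Adipoq, Lep and Plin1 had at most 6 counts summed over any group, Retn had 10 in the 9-month controls and 0 elsewhere, and Fabp4 was at 4.58 to 22.8 CPM over all libraries. Of 5 tested genes in the list of 10 fat cell genes, 4 were negative, with a median change of -1.55, and Cidec alone was called. The 10 summed to 3877 to 7777 CPM in 2-month controls and 297 to 2425 CPM in 2-month mutants. At 9 months the sums were 8532 to 10157 CPM in controls and 346 to 1139 CPM in tumour-free mutants. In controls they came almost wholly from Car3, Pck1 and Cfd of the list, and not from Cidec or the fat cell genes given above. The sums are thus not a measure of fat cells. The part of fat cells in the Cidec levels was not tested.

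Plin2 and Plin4 encode coat proteins of the droplet, and here mutants stood further below controls at 9 months. Plin2 ranged from 356 to 579 CPM in 2-month controls (median 424), and was at 215, 239 and 215 CPM in 2-month mutants, 645, 789 and 874 CPM in 9-month controls and 128, 137 and 126 CPM in tumour-free mutants. Mutants were below controls at both times, controls rose with time and mutants fell, so that the effect went from -1.03 to -2.56 and the change was -1.53 ± 0.22 (adjusted p = 0.00298). Plin4 ranged from 1.69 to 14.8 CPM in 2-month controls (median 10.3), and was at 6.82, 7.87 and 5.67 CPM in 2-month mutants, 42.1, 66.8 and 46.3 CPM in 9-month controls and 2.69, 3.11 and 3.33 CPM in tumour-free mutants. The groups overlapped at 2 months and lay apart at 9 months, with a change of -3.65 ± 0.64 (adjusted p = 0.0123). Fitm1, which helps droplets bud from the endoplasmic reticulum, changed by -1.55 ± 0.35 (adjusted p = 0.0368). Its call was lost in 9 of the 15 fits that left out 1 library, with adjusted p-values up to 0.138, and held without mutant 3 at 2 months, controls 3, 5 and 6 at 2 months, and the 9-month libraries numbered 1.

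**Figure D3:**
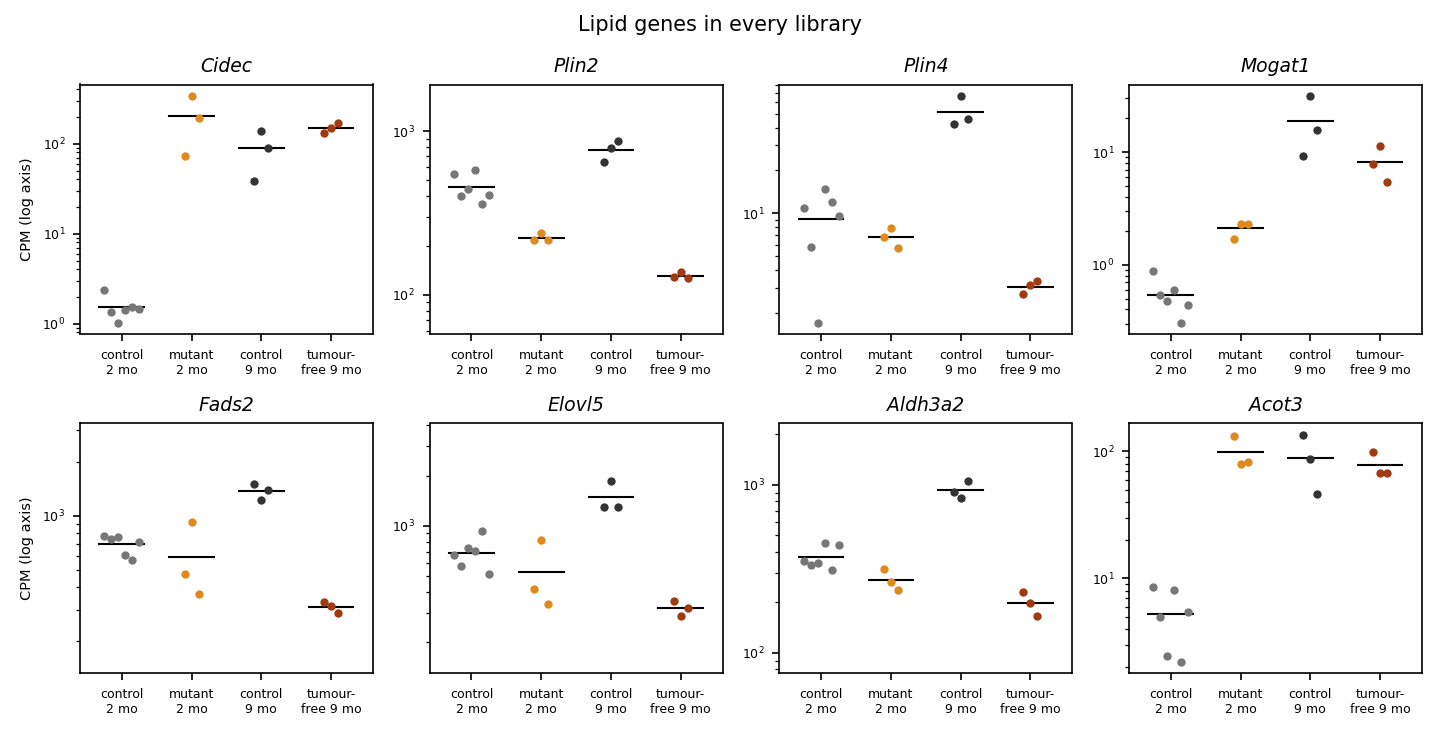
CPM on a log axis for 8 lipid genes; each point is 1 library (6 controls and 3 mutants at 2 months, 3 controls and 3 tumour-free samples at 9 months) and bars are group means. For Cidec and Acot3 the 2-month controls stand alone at the bottom, and for Plin2, Plin4, Fads2, Elovl5 and Aldh3a2 the 9-month controls stand at the top.

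Enzymes that make fatty acids and triglycerides held 5 called lower and 0 higher among 24, against 1.05% lower over all tested genes. Their median change was -0.80. With time 12 rose and 1 fell in controls, and 1 rose and 3 fell in mutants, where 8.27% of all tested genes rose in controls and 2.14% fell in mutants. Without 1 library 2 to 6 were called, with 2 left without mutant 2 at 2 months or tumour-free sample 2 or 3 and 3 without control 2 at 9 months, and limma voom called 3. Mogat1, an acyltransferase of triglyceride synthesis, ranged from 0.303 to 0.879 CPM in 2-month controls (median 0.507), and was at 1.69, 2.28 and 2.32 CPM in 2-month mutants, 9.32, 31.6 and 15.8 CPM in 9-month controls and 7.89, 11.2 and 5.43 CPM in tumour-free mutants. Mutants were above controls at 2 months and overlapped them at 9 months, with a change of -3.14 ± 0.55 (adjusted p = 0.00831), which was -2.55 without control 2 at 9 months. The desaturases Fads1 and Fads2 and the elongase Elovl5, which build long polyunsaturated fatty acids, changed by -2.06 ± 0.40, -1.89 ± 0.32 and -1.83 ± 0.37, with adjusted p-values of 0.018, 0.00709 and 0.0195. Fads2 ranged from 569 to 771 CPM in 2-month controls (median 731), and was at 473, 923 and 368 CPM in 2-month mutants, 1501, 1220 and 1384 CPM in 9-month controls and 332, 314 and 289 CPM in tumour-free mutants. Its groups overlapped at 2 months, and at 9 months every tumour-free sample lay below every control. The call of Fads1 was lost without mutant 1 or 2 at 2 months or tumour-free sample 2 or 3 (adjusted p up to 0.0737), and that of Elovl5 without mutant 2 at 2 months, control 2 at 9 months or tumour-free sample 2 or 3 (up to 0.076). Me1, malic enzyme, which supplies reducing power for fat synthesis, changed by -1.27 ± 0.29 (adjusted p = 0.0386), a call lost in 11 of the 15 fits without 1 library (up to 0.139). Fasn, Scd1 and Srebf1, singled out after their values were seen as the best known genes of fat synthesis, were not called, at -1.07, -0.76 and -0.78 (adjusted p = 0.449, 0.386 and 0.626).

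Fatty acid oxidation held 7 called lower and 0 higher among 32, where 1.05% of all tested genes were called lower, with a median change of -0.47. With time 15 rose and 0 fell in controls, and 1 rose and 3 fell in mutants. Over all tested genes 8.27% rose in controls and 2.14% fell in mutants. Without 1 library 2 to 8 were called, with 2 left without mutant 1 or 2 at 2 months or tumour-free sample 3, 3 without control 3 at 9 months or tumour-free sample 2, and 4 without control 1 or 5 at 2 months. All 32 values were negative under the main scaling and 30 of 32 by library size alone, where 3 were called. Aldh3a2, which clears fatty aldehydes and belongs to the PPAR alpha target list, ranged from 311 to 449 CPM in 2-month controls (median 348), and was at 315, 266 and 238 CPM in 2-month mutants, 908, 829.9 and 1056 CPM in 9-month controls and 229, 197 and 166 CPM in tumour-free mutants. Its groups overlapped slightly at 2 months and lay far apart at 9 months, with a change of -1.79 ± 0.23 (adjusted p = 0.00107). Vnn1, a pantetheinase of the same list, changed by -2.12 ± 0.46 (adjusted p = 0.0354), lost in 7 of 15 fits without 1 library (up to 0.125). These were 2 called of 15 in that list. Decr1, an auxiliary enzyme for unsaturated fatty acids, changed by -0.72 ± 0.15 (adjusted p = 0.0216). Its call was lost without mutant 1 or 2 at 2 months, control 3 at 9 months or tumour-free sample 3 (up to 0.103). Cpt1a, the gate of mitochondrial oxidation, also singled out after its values were seen, was at -0.65 (adjusted p = 0.396). Nuclear genes of oxidative phosphorylation held 0 among 35, where 1 had an unadjusted p under 0.05.

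In the acyl-CoA thioesterases of the Acot2 to Acot4 cluster, which split acyl-CoA into free fatty acid and coenzyme A, mutants were above controls at 2 months. Acot2 had the most negative change in the oxidation list and is one of its 7 called genes. At 2 months 28 of the 32 genes of that list were called lower in mutants and 2 higher. Acot3 ranged from 2.2 to 8.54 CPM in 2-month controls (median 5.21), and was at 131, 79.8 and 83.1 CPM in 2-month mutants, 135, 86.5 and 45.9 CPM in 9-month controls and 98.5, 67.4 and 67.8 CPM in tumour-free mutants. Only the 2-month controls were low, and the change was -4.40 ± 0.61 (adjusted p = 0.00298). Acot2 and Acot4 changed by -2.07 ± 0.35 and -1.97 ± 0.32 (adjusted p = 0.0069 and 0.00583), and for both mutants were above controls at 2 months and below them at 9 months. These genes are close copies, so reads may have been split between them.

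Along with these lipid results, the summed level of 19 circadian clock genes was 602.7 to 1474 CPM in 2-month controls, 860 to 1085 CPM in 2-month mutants, 1602 to 1969 CPM in 9-month controls and 995.6 to 1203 CPM in tumour-free mutants. With time 5 of the 19 rose and 3 fell in controls, and 0 rose and 1 fell in mutants. Their changes of the mutant effect ran from -1.99 to 4.08. In a sum genes that move opposite ways offset each other, so it does not give the hour of sampling. The part of the hour of sampling in the results was not tested. No clock gene was called, where 1.52% of all tested genes were, and 4 of the 19 had an unadjusted p under 0.05.

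In other genes, as in Cidec, mutants stood far above controls at 2 months and controls had risen by 9 months. Themis, a T-cell signalling gene, had the smallest adjusted p of all named genes. It ranged from 0.145 to 0.45 CPM in 2-month controls (median 0.325), and was at 9.7, 14.1 and 14.1 CPM in 2-month mutants, 10.98, 19.2 and 9.34 CPM in 9-month controls and 30.1, 17.4 and 17.6 CPM in tumour-free mutants. The 2-month controls alone were near 0, and the change was -4.58 ± 0.43 (adjusted p = 0.000185). Of the T-cell receptor complex, Cd3e, Cd3d and Cd3g were not called (adjusted p = 0.911, 0.606 and 0.583) and lay between 0.228 and 2.01 CPM in all 15 libraries. These genes, and the other T-cell genes set beside Trac below, fall outside the rule by which genes were named. Osbpl3, an oxysterol-binding protein, ranged from 1.68 to 6.57 CPM in 2-month controls (median 2.29), and was at 107, 69.9 and 103 CPM in 2-month mutants, 47.9, 57.8 and 49.9 CPM in 9-month controls and 71.8, 77.4 and 59.9 CPM in tumour-free mutants. Mutants were above controls at both times, by far less at 9 months, and the change was -4.42 ± 0.45 (adjusted p = 0.000342). Nebl, an actin-binding protein, changed by -5.63 ± 0.58 (adjusted p = 0.000255), from 7.05, 7.03 and 5.62 CPM in 2-month mutants against at most 0.44 CPM in controls to 2.35, 1.48 and 0.547 CPM in tumour-free mutants against 3.16, 2.35 and 2.39 CPM in 9-month controls. Fam102a changed by -1.64 ± 0.21 (adjusted p = 0.00115).

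The secreted proteins Apoa4 and Orm3 also rose with time in controls. Apoa4, an apolipoprotein of fat-rich particles, ranged from 135 to 681 CPM in 2-month controls (median 276), and was at 13025, 27831 and 14053 CPM in 2-month mutants, 2512, 7032 and 3299 CPM in 9-month controls and 11152, 15503 and 16729 CPM in tumour-free mutants. Mutants lay above controls at both times, the mutant effect was 5.77 and then 1.76, and the change was -4.01 ± 0.85 (adjusted p = 0.0331). The call was lost without mutant 1 or 2 at 2 months, control 2 or 3 at 9 months or any tumour-free sample (up to 0.105). Orm3, an acute phase protein with close copies, changed by -3.81 ± 0.68 (adjusted p = 0.014), a call lost without tumour-free sample 2 (0.0511), and was -3.13 without control 2 at 9 months. The canalicular pumps Abcb4, which puts phospholipid into bile, and Abcb1a changed by -1.30 ± 0.20 and -2.43 ± 0.43 (adjusted p = 0.00344 and 0.00896). Abcb4 ranged from 223 to 295 CPM in 2-month controls (median 243), and was at 987, 949.8 and 1057 CPM in 2-month mutants, 302, 235 and 338 CPM in 9-month controls and 482, 519 and 426 CPM in tumour-free mutants. For Abcb4 it was the mutants that came down, staying above controls at both times.

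In another set mutants fell with time. Wfdc21, a small secreted protein of the whey acidic protein family, ranged from 311 to 453 CPM in 2-month controls (median 379), and was at 46.4, 45.9 and 26.0 CPM in 2-month mutants, 405, 364 and 424 CPM in 9-month controls and 4.45, 1.66 and 1.77 CPM in tumour-free mutants. Controls overlapped between the times and mutants fell, with a change of -3.97 ± 0.40 (adjusted p = 0.000255). Csrp3, a LIM-domain protein best known from muscle, ranged from 24.8 to 39.8 CPM in 2-month controls (median 36.6), and was at 27.2, 21.3 and 12.9 CPM in 2-month mutants, 31.0, 35.6 and 33.5 CPM in 9-month controls and 3.61, 1.41 and 1.68 CPM in tumour-free mutants. It overlapped between the genotypes at 2 months and lay well below controls at 9 months, with a change of -3.14 ± 0.39 (adjusted p = 0.00107). Among 21 sulfotransferases and glucuronosyltransferases, enzymes that tag steroids and drugs with sulfate or glucuronic acid, 2 were called lower, against 1.05% of all tested genes. Both were sulfotransferases, Sult2a8 at -2.28 ± 0.41 (adjusted p = 0.00948) and Sult1a1 at -1.09 ± 0.26 (adjusted p = 0.0438, lost in 11 of 15 fits without 1 library, up to 0.15). Sult2a8 went from 12.1, 8.84 and 5.09 CPM in 2-month mutants to 1.6, 1.04 and 1.18 CPM in tumour-free mutants, where controls at either time held 442 to 1198 CPM. Sult2a7, a close copy outside the list, changed by -5.67 ± 0.67 (adjusted p = 0.00076) and by -6.94 without tumour-free sample 1. Mgst1, a membrane glutathione transferase, and Acp1, a phosphatase, were above controls at 2 months and below them at 9 months in every mutant library, with changes of -1.63 ± 0.22 and -1.02 ± 0.13 (adjusted p = 0.00125 and 0.00115).

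Gprc5b and Cyp2b9 rose with time in controls, while their step in mutants did not pass the test. Gprc5b, an orphan G-protein-coupled receptor, ranged from 0.474 to 1.13 CPM in 2-month controls (median 0.741), and was at 0.676, 1.14 and 2.05 CPM in 2-month mutants, 9.98, 28.8 and 24.8 CPM in 9-month controls and 1.55, 1.07 and 1.77 CPM in tumour-free mutants. It rose in controls over time and the mutant libraries of both times overlapped, so that the change was -4.63 ± 0.57 (adjusted p = 0.00085). Cyp2b9, a cytochrome P450 with a female bias in mouse liver, ranged from 0 to 0.9 CPM in 2-month controls (median 0.183), and was at 4.00, 0.781 and 1.56 CPM in 2-month mutants, 108, 216 and 69.0 CPM in 9-month controls and 13.1, 4.44 and 8.17 CPM in tumour-free mutants. The 9-month controls stood above all other libraries, with a change of -6.46 ± 1.00 (adjusted p = 0.0069), which was -5.61 without 2-month mutant 1. Female-biased genes of the liver held 2 called lower, Cyp2b9 and Acot3, and 0 higher among 19, with a median change of -0.99, and male-biased genes 1 higher and 1 lower among 26, with a median of 0.48. The shares over all tested genes were 1.05% lower and 0.462% higher.

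Among genes whose mutant effect was higher at 9 months, several P450 and esterase genes were near 0 in 2-month mutants and rose with time in mutants. The list of phase I enzymes, mostly cytochrome P450 oxidases, held 3 higher and 3 lower among 35, with a median of -0.32. Among all tested genes 0.462% were called higher and 1.05% lower. Without 1 library 1 to 3 were called in either direction, with 1 higher left without mutant 2 at 2 months and 1 lower left in 11 of the 15 fits, and limma voom called 1 higher and 2 lower. Cyp2a5, a coumarin hydroxylase, ranged from 162 to 682 CPM in 2-month controls (median 338), and was at 1.24, 1.62 and 1.34 CPM in 2-month mutants, 883, 931 and 1101 CPM in 9-month controls and 479, 74.0 and 55.5 CPM in tumour-free mutants. Mutants were below controls at both times, and the change was 5.81 ± 1.09 (adjusted p = 0.0189). It was 4.20 without tumour-free sample 1, and the call was lost without mutant 1 or 2 at 2 months or control 2 at 9 months (up to 0.0653). Cyp2c38 changed by 3.07 ± 0.53 (adjusted p = 0.00802), from 0.113, 0.421 and 0.312 CPM in 2-month mutants to 7.6, 3.51 and 7.62 CPM in tumour-free mutants, with all controls between 23.8 and 100.1 CPM. Ces1b, a carboxylesterase, changed by 4.49 ± 0.84 (adjusted p = 0.018), by 3.46 without tumour-free sample 1, and was not called without any 1 of the 2-month mutants or without control 2 at 9 months (up to 0.0601). All of these have close copies in the genome.

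Car1, a carbonic anhydrase of red blood cells and gut, had 1 count summed over the 2-month mutants. It ranged from 5.57 to 9.89 CPM in 2-month controls (median 7.13) and was at 5.66, 5.51 and 6.41 CPM in 9-month controls and at 0.714, 0.222 and 0.295 CPM in tumour-free mutants. The ratio of tumour-free to 2-month mutants was 23.3. It was 4.18 to 920 over the 95% exact Poisson limits of the 1 count in 2-month mutants, the tumour-free mean being held fixed. The change was called at an adjusted p of 0.0115 and in all 15 fits without 1 library. Its fitted size of 4.41 depends on the near-empty group, being 6.25 without mutant 3 at 2 months and 3.79 without tumour-free sample 1. Of 7 tested erythroid genes Car1 was the one called, where 1.52% of all tested genes were.

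Cdh1 and Serpina1e fell with time in controls, and their step in mutants did not pass the test. Cdh1, E-cadherin, which joins epithelial cells, ranged from 31.2 to 75.8 CPM in 2-month controls (median 58.7), and was at 249, 185 and 282 CPM in 2-month mutants, 5.6, 4.48 and 5.54 CPM in 9-month controls and 176, 269 and 175 CPM in tumour-free mutants. Mutants were above controls at both times and did not separate between the times, and the change was 3.26 ± 0.37 (adjusted p = 0.000685). Serpina1e, one of several near-identical alpha-1-antitrypsin genes whose reads may be shared, ranged from 4102 to 9761 CPM in 2-month controls (median 8146), and was at 24.5, 13.6 and 18.3 CPM in 2-month mutants, 1111, 225 and 562 CPM in 9-month controls and 36.3, 28.3 and 21.01 CPM in tumour-free mutants. The change was 4.13 ± 0.65 (adjusted p = 0.00576), and 4.81 without control 1 at 9 months. Lifr, a cytokine receptor, and Cyp2c70, which makes muricholic bile acids, took a like course, at 1.28 ± 0.27 and 1.52 ± 0.31 (adjusted p = 0.026 and 0.02). Both calls were lost without mutant 2 at 2 months or control 3 at 9 months, that of Lifr also without mutant 3 at 2 months and that of Cyp2c70 also without tumour-free sample 2 (up to 0.0682). Ahsg, the plasma protein fetuin-A, was at 9989 to 12628 CPM in 2-month controls and at 5495, 4327 and 6348 CPM in 9-month controls, with mutants between 8885 and 11030 CPM at both times. It changed by 0.97 ± 0.20 (adjusted p = 0.0249), lost without tumour-free sample 2 or 3 (up to 0.0658), and was the only call among 15 hepatocyte markers, where 1.52% of all tested genes were called.

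**Figure D4:**
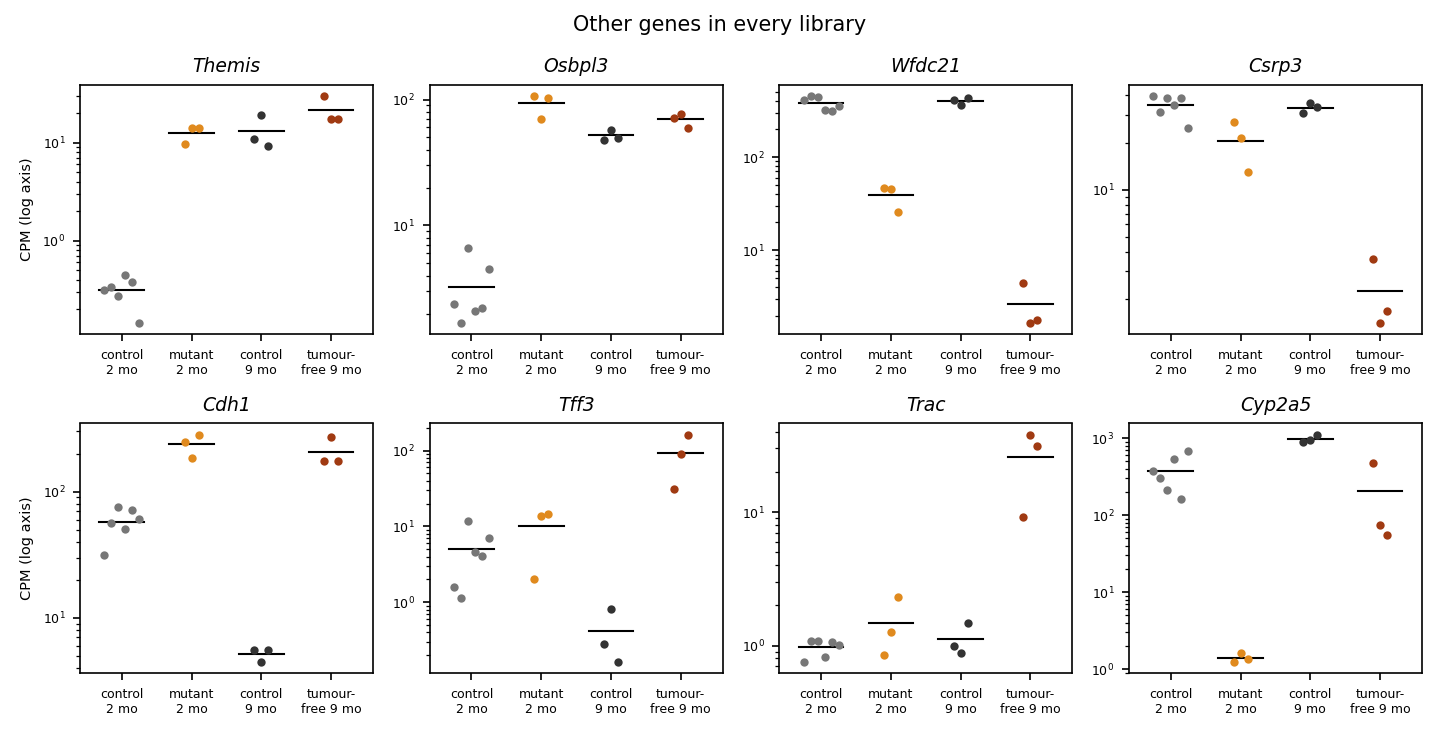
CPM on a log axis for 8 further genes; each point is 1 library and bars are group means, with groups as in the plot of lipid genes. Themis and Osbpl3 are low in 2-month controls alone, Wfdc21 and Csrp3 are lowest in tumour-free mutants, Cdh1 is lowest in 9-month controls, and Tff3 and Trac are highest in tumour-free mutants.

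A last set was highest in tumour-free mutants. Tff3, a trefoil peptide of mucosal and bile duct epithelium, ranged from 1.15 to 11.9 CPM in 2-month controls (median 4.33), and was at 2.03, 13.8 and 14.4 CPM in 2-month mutants, 0.277, 0.819 and 0.163 CPM in 9-month controls and 31.4, 90.1 and 161 CPM in tumour-free mutants. The tumour-free samples stood above all other libraries, and the change was 6.79 ± 1.39 (adjusted p = 0.0305). It was lost in 8 of 15 fits without 1 library (up to 0.0901), among them each 9-month control, and was 6.20 without tumour-free sample 3 and 7.70 without control 2 at 9 months. Espn, an actin bundler of microvilli, changed by 2.65 ± 0.49 (adjusted p = 0.0123), from 2.48, 2.4 and 2.81 CPM in 2-month mutants to 14.02, 16.8 and 30.2 CPM in tumour-free mutants. Of 14 tested genes of intestinal epithelium, Tff3 and Espn were the ones called, where 0.462% of all tested genes were called higher, and limma voom called 0. Myo15b changed by 3.04 ± 0.70 (adjusted p = 0.0418), lost in 11 of 15 fits without 1 library (up to 0.101) and was 4.06 without mutant 3 at 2 months and 3.63 without control 3 at 9 months.

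Afp, alpha-fetoprotein, the plasma protein of fetal liver, ranged from 0.404 to 2.03 CPM in 2-month controls (median 1.34), and was at 0.338, 0.721 and 0.491 CPM in 2-month mutants, 0.444, 1.26 and 0.761 CPM in 9-month controls and 19.1, 5.51 and 4.8 CPM in tumour-free mutants. Every tumour-free sample was above every other library, the change was 4.80 ± 0.84 (adjusted p = 0.00895) and it was 3.92 without tumour-free sample 1. It was the single call among 19 oncofetal genes, where 0.462% of all tested genes were called higher, and limma voom called 0. Trac, the constant segment of the T-cell receptor alpha chain, was at 0.754 to 1.08 CPM in 2-month controls, at 0.846, 1.26 and 2.32 CPM in 2-month mutants, at 0.998, 0.873 and 1.47 CPM in 9-month controls and at 9.24, 37.8 and 31.0 CPM in tumour-free mutants. The change was 3.91 ± 0.63 (adjusted p = 0.00576). Trbc2, the constant segment of the beta chain, stayed between 0.541 and 1.05 CPM in all 15 libraries, and Cd3e changed by -0.25 ± 0.51 (adjusted p = 0.911). Cd8a was at 0.444 to 0.547 CPM in tumour-free mutants, above the 0.109 to 0.333 CPM of 9-month controls. At 2 months its levels overlapped between the genotypes. Cd4 (0.758 to 2.69 CPM in tumour-free mutants, 0.655 to 1.16 CPM in 9-month controls), Cd8b1 and Trdc overlapped at both times. Of 13 tested T and NK cell genes, 1 was called higher (Trac) and 1 lower (Themis), against 0.462% and 1.05% of all tested genes.

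Cyp1a1, a P450 induced by the aryl hydrocarbon receptor, was at 54.8, 12.8 and 8.17 CPM in tumour-free mutants and at most 2.57 CPM elsewhere, with a change of 3.84 ± 0.86 (adjusted p = 0.0386). It was 2.61 without tumour-free sample 1, and the call was lost in 10 of 15 fits without 1 library (up to 0.102). Enho, which encodes the peptide adropin, changed by 4.00 ± 0.89 (adjusted p = 0.0447), lost in 13 of those fits (up to 0.13). Csad, an enzyme of taurine synthesis, was at 971, 1086 and 999 CPM in tumour-free mutants, above all other libraries, with a change of 1.59 ± 0.25 (adjusted p = 0.00431). Ptgds, a prostaglandin synthase, moved the other way, from 24.6, 3.67 and 23.5 CPM in 2-month mutants, where controls ranged from 1.56 to 3.87 CPM and overlapped them, to 0.252, 0.259 and 0.253 CPM in tumour-free mutants, with a change of -4.48 ± 0.84 (adjusted p = 0.0146), lost without control 3 at 9 months or tumour-free sample 2 or 3 (up to 0.054).

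**Figure D5:**
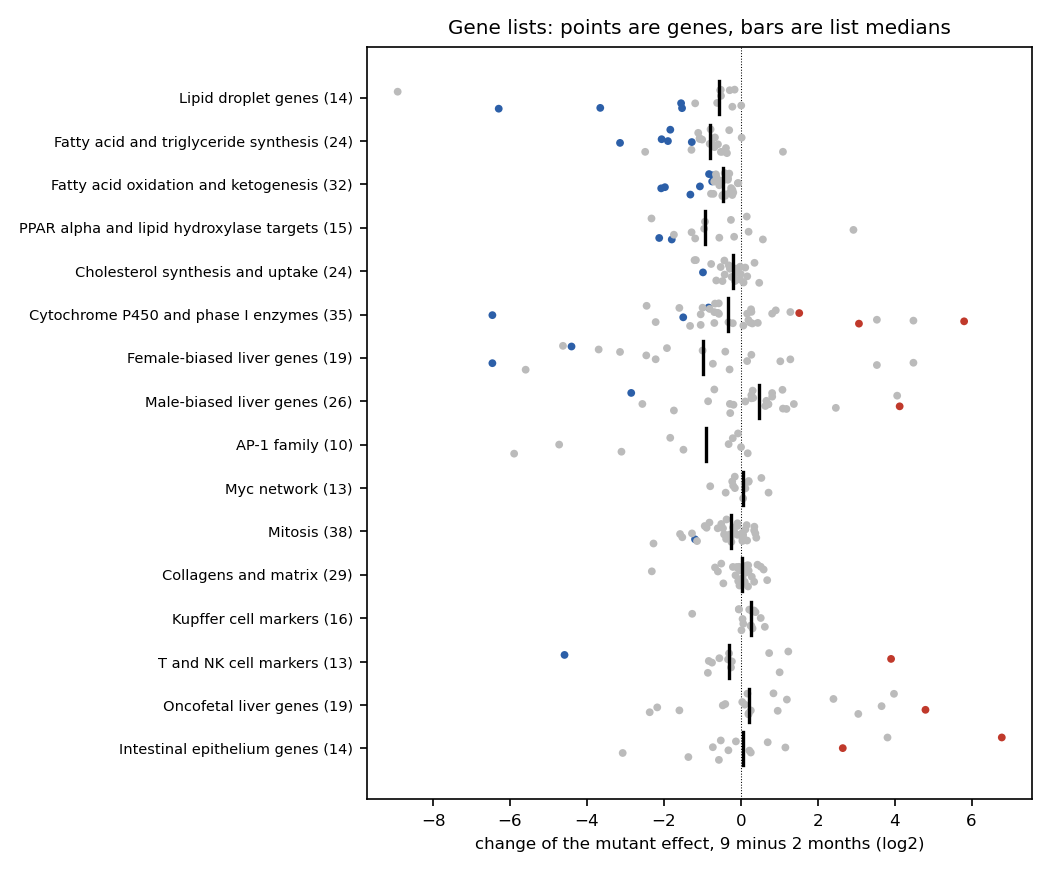
Change of the mutant effect (horizontal axis, log2) for the tested genes of 16 lists; points are genes, blue called lower, red called higher, grey not called, and bars are list medians, with the number of tested genes in brackets. The lipid lists hold blue points and no red ones, and the AP-1, Myc, collagen and Kupffer cell lists hold neither.

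Among the regulators and the other cell types, few genes were called. Over all tested genes 1.52% were called, so 0 calls in lists this short say little about their members. The AP-1 family held 0 of 10, with a median change of -0.90 that was -0.06, over 11 genes, without both 9-month libraries numbered 1, and 3 members had an unadjusted p under 0.05. The Myc network held 0 of 13 (1 with an unadjusted p under 0.05), collagens and matrix 0 of 29 (0), stellate cell markers 0 of 16 (1), Kupffer cell markers 0 of 16 (0) and interferon-stimulated genes 0 of 29 (4). Sinusoidal endothelial markers held 0 of 17 (4), with 14 negative and a median change of -0.55, and 0 to 3 were called lower without 1 library. Further calls were each lost in at least 2 fits without 1 library. They were C8a of complement (-2.85, and -2.24 without mutant 1 at 2 months), Nfe2l2, the master regulator of antioxidant genes (-1.02), and Ccnd1, cyclin D1 (-1.52). The others were Spc24 of the kinetochore (-1.19), Cyp46a1, a cholesterol hydroxylase (-1.70), Anxa3 (1.16), Anxa7 (-0.63), Apoc4 (-1.44) and the elastase Cela1 (1.57). The adjusted p-values of these genes were 0.0375, 0.0192, 0.0488, 0.0402, 0.0478, 0.0403, 0.0424, 0.0376 and 0.0182 in that order. Among 18 tested annexin and S100 genes 1 was called higher and 1 lower, and Cela1 was 1 of 2 tested pancreas genes. Among the genes described, the calls of Decr1, Vnn1, Nfe2l2, C8a, Ccnd1, Spc24, Cyp46a1 and Anxa7 were lost both by library size alone and without both 9-month libraries numbered 1. Those of Fitm1, Me1, Sult1a1 and Apoc4 were lost by library size alone, and those of Apoa4, Ptgds, Enho, Myo15b and Anxa3 without those libraries. With limma voom the calls of Mogat1, Trac, Apoa4, Sult2a8, Ptgds, Cyp2a5, Cyp2c38, Ces1b, Tff3, Afp, Cyp1a1, Enho, Espn, Fitm1, Me1, Sult1a1, C8a, Apoc4, Ccnd1, Spc24 and Cyp46a1 were lost. Ccnd1 was at 70.9, 195 and 121 CPM in 2-month mutants and at 51.1, 42.8 and 55.3 CPM in tumour-free mutants, above controls at both times. Summed hepatocyte markers were 78714 to 98772 CPM in 2-month mutants and 81177 to 87028 CPM in tumour-free mutants, against 136240 to 185050 CPM in controls of both times.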

How the data were processed

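Poly(A) RNA of mouse liver was sequenced from stranded libraries, and the deposited table holds whole-number counts per gene for 19 libraries, of which 15 were used. The submitters' processing notes name RSEM, the aligner STAR 2.6.1a, DESeq2 1.22.2, bedtools 2.27.1 and the build GRCm38 (mm10). What each tool did, the annotation release and the strand setting were not given in the sources used here, and since RSEM is listed the counts may be rounded estimates.

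Genes were kept by edgeR's expression filter by group (14707 of 55421; 29382 had a count in any of the 15 libraries). Counts were fitted in R 4.3.3 with edgeR 4.0.16 (TMM scaling, robust quasi-likelihood test, Benjamini-Hochberg adjustment, threshold 0.05) over the 4 groups, and levels are counts per 1000000 (CPM) after TMM. The standard error was derived from the fitted change and its F statistic. Each library came from a separate animal, so p-values measure the spread between these animals. Intervals and floors (3 counts) cover counting error only, and intervals only that of the group with the fewer counts.

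The members and the 63 gene lists were chosen with earlier results of these data known. Genes named are Jun, Fosl2 and Myc, the 10 most changed in each direction and the 10 with the smallest adjusted p among those over 5 CPM in a group, the leading genes of each pattern and the leading members of the lists; where a gene falls outside this rule, the text says so, and not every gene under the rule is described. Alternatives were DESeq2 1.42.0, limma 3.58.1 (voom), other scalings, filters and fits, and leaving out each library.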

Additional observations from a re-analysis of the deposited data

Results flagged for a closer look

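The mutant effect differed between 2 and 9 months, by the test of the difference itself, in 223 genes, of which 59 are described by name. On the log2 scale the change was positive for Tff3 (6.79), Cyp2a5 (5.81), Afp (4.80), Ces1b (4.49), Car1 (4.41), Serpina1e (4.13), Enho (4.00), Trac (3.91), Cyp1a1 (3.84), Cdh1 (3.26), Cyp2c38 (3.07), Myo15b (3.04), Espn (2.65), Csad (1.59), Cela1 (1.57), Cyp2c70 (1.52), Lifr (1.28), Anxa3 (1.16) and Ahsg (0.97). It was negative for Cyp2b9 (-6.46), Cidec (-6.29), Sult2a7 (-5.67), Nebl (-5.63), Gprc5b (-4.63), Themis (-4.58), Ptgds (-4.48), Osbpl3 (-4.42), Acot3 (-4.40), Apoa4 (-4.01), Wfdc21 (-3.97), Orm3 (-3.81), Plin4 (-3.65), Csrp3 (-3.14), Mogat1 (-3.14), C8a (-2.85), Abcb1a (-2.43), Sult2a8 (-2.28), Vnn1 (-2.12), Acot2 (-2.07), Fads1 (-2.06), Acot4 (-1.97), Fads2 (-1.89), Elovl5 (-1.83), Aldh3a2 (-1.79), Cyp46a1 (-1.70), Fam102a (-1.64), Mgst1 (-1.63), Fitm1 (-1.55), Plin2 (-1.53), Ccnd1 (-1.52), Apoc4 (-1.44), Abcb4 (-1.30), Me1 (-1.27), Spc24 (-1.19), Sult1a1 (-1.09), Nfe2l2 (-1.02), Acp1 (-1.02), Decr1 (-0.72) and Anxa7 (-0.63). The fitted value of Car1 depends on a group with 1 count and ranged from 3.79 to 6.25 when 1 library was left out.

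One library stood far from the others of its group in Cidec, where 2-month control 1 was at 2.39 CPM and the other 5 controls of that age lay lower. By the criterion used, chance alone sets apart about 1 group in 20. It was applied to the 2-month controls in 63 genes, so a single such library is no more than chance gives.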

How the results depend on the processing

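The change of the mutant effect was called in 223 genes (68 higher, 155 lower). DESeq2 called 523 (213 higher, 310 lower), 222 of them shared, and 1266 genes for time in mutants against 793. A fit over all 5 groups, tumours included, called 54 (17 higher, 37 lower), with 1056 for time in controls against 1903 and 285 for time in mutants. Requiring a change beyond 2-fold left 17 (4 higher, 13 lower), with 1270 and 1617 genes for the mutant effect at 2 and 9 months against 5906 and 6000, and 144 and 92 for time in controls and mutants. By library size alone 87 genes were lower. Without both 9-month libraries numbered 1, 1242 genes were called for time in mutants. Limma voom called 181, size factors by relative log expression 211, no filter 203, a stricter filter 232 and protein coding genes alone 222.

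Leaving out 1 library gave 110 to 293 genes for the change (38 to 110 higher, 72 to 183 lower), 4145 to 6212 and 4850 to 6191 for the mutant effect at 2 and 9 months, 867 to 1964 for time in controls and 440 to 994 for time in mutants. Fosl2 ranged from -0.21 to 0.35, Myc from -0.62 to 1.44 and Cd3e from -0.47 to 0.088, none of them called. Of the 59 called genes described, 31 kept the call in every such fit and 8 under every alternative.

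Whether replicate numbers pair the samples is not settled. In their deviations from group means, same-numbered controls and mutants correlated at -0.14, 0.31 and -0.29 at 2 months and at 0.41, 0.02 and -0.10 at 9 months. Differently numbered ones ranged from -0.37 to 0.40 at 2 months and from -0.35 to 0.44 at 9 months. Deviations within a group of 3 depend on each other, so these values cannot decide it. With a block for each replicate number within a time, 54 genes were called (16 higher, 38 lower), 3927 for the mutant effect at 2 months, 90 for time in controls and 78 for time in mutants, and Myc was -0.19. Controls 4 to 6 at 2 months have no mutant of their number, so they add nothing to the mutant effect in that fit. Its time steps compare a reference block of each time and not the group means, so the counts of 90 and 78 are not for the same contrasts as in the main fit. The cause of these differences was not tested.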
